A study of Mus musculus with 4 samples.

Results

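The 10 genes described here were chosen by symbol among the 55573 genes listed for every mouse, and all 10 were found: Ttr, Enpp2, Sostdc1, Kl, 1500015O10Rik, Folr1, Prlr, Clic6, Kcnj13 and Calml4. They were chosen by their known high expression in the choroid plexus, with earlier results of these data in view, so their high level in choroid plexus cells is a description and was not tested. The choroid plexus is a folded epithelium in the brain ventricles that makes the cerebrospinal fluid and secretes proteins into it. Its cells carry folate, hormones and ions between blood and fluid through receptors, carriers and channels on both faces. In droplet sequencing, RNA from broken cells floats free in the suspension and is captured with every cell, so that transcripts of a very active source cell are counted in cells that do not make them.

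Whole brains of 4 male C57BL/6J mice were dissociated to single cells after perfusion with buffer, depleted of myelin, debris, red cells and dead cells, and sequenced with 1 library for each mouse. An adult and an aged mouse were fed a purified diet (AIN-93M) with 0% inulin, a fermentable fiber, and another adult and aged mouse the same diet with 5% inulin, and both diets held 1% cellulose. Adult mice were 3 to 4 months and aged mice 23 to 24 months old when the diets began. The diets were fed for several weeks, so the mice were older than this when the brains were taken. By the methods, adult mice came from an in-house colony and aged mice from the National Institute on Aging, so age and origin cannot be told apart. Because each combination of age and diet was 1 mouse, age was compared as 2 mice against 2 with the diets pooled, and the values of each mouse are given in the order adult 0%, adult 5%, aged 0% and aged 5% inulin.

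The libraries held 36876 barcodes, 7881 to 10256 for each mouse, and 88248117 to 115814810 UMIs for each mouse (a UMI is a tag that counts 1 captured RNA molecule), and 32509 barcodes were kept. A cell was put in a class when it held at least 3 UMIs of at least 2 genes of that class's marker gate, and barcodes that passed several gates at similar strength (3291) were set aside as mixed. The choroid plexus gate used Kl and Kcnj13 alone, and it took 821, 524, 389 and 554 cells, 2288 in all. All 6 markers left out of the gate were detected in them: Otx2, Aqp1, Cldn2, Slc4a5, Car12 and Tmem72. A further 15 classes with at least 50 cells served for comparison, from 54 olfactory ensheathing-like to 9045 endothelial-like cells. Between libraries, 192 barcode sequences were shared. The barcodes of 23 choroid plexus cells were among them, and 1 such sequence was gated as choroid plexus in more than 1 library.

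Both the depth of the cells and the choice of gate genes bear on every value below. No upper limit on UMIs was applied, because choroid plexus cells held a median of 48088, 59000, 50868 and 41249.5 UMIs while cells of the other classes held 6404 ± 204 (SD of the 4 medians). The study's methods state an upper limit of 3 median absolute deviations on the total gene count. Applied here to UMIs in its place (22005 UMIs), such a limit would have removed 71.7% ± 4.02 of the choroid plexus cells (SD, n = 4 mice), against 11.4% ± 1.34 of all kept barcodes. Kl and Kcnj13 defined the class, so their level in it has a floor and their level in every other class has a ceiling. At the edge of the gate, 41 barcodes with 2 UMIs of both genes and no other gate had a median Ttr level of 364 per 10,000 UMIs, 25 barcodes just inside with 3 UMIs had 383, 42 with 4 to 5 UMIs had 822, and 2221 with at least 6 UMIs had 2884. The medians on both sides of the gate were close, but the quartiles ran from 83.2 to 614 outside and from 244 to 842 just inside, and 9.76% against 20% of these barcodes passed 1000 per 10,000. Of the 2343 barcodes in which Ttr passed 1000 per 10,000, 2108 were choroid plexus cells, 119 were mixed, 84 had no class and 32 had another class, and 180 choroid plexus cells (7.87%) lay below that level.

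Of the 10 genes, 5 encode proteins that are secreted or shed. Ttr encodes transthyretin, which carries thyroid hormone and retinol-binding protein in the cerebrospinal fluid, and lies on chromosome 18. Enpp2 (chr15:54838901-54952892, minus strand; GRCm38, as are all positions here) encodes autotaxin, the enzyme that makes lysophosphatidic acid. Sostdc1 (chr12:36314139-36318452, plus strand) encodes a secreted inhibitor of BMP and Wnt signals. Kl (chr5:150952607-150993817, plus strand) encodes klotho, a membrane protein whose outer part is shed into the fluid. The gene listed as 1500015O10Rik (chr1:43730602-43742578, plus strand), also named Ecrg4, encodes augurin, a precursor of secreted peptides.

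The other 5 genes encode proteins of the cell itself. Folr1 (chr7:101858331-101870788, minus strand) encodes the folate receptor alpha that moves folate toward the cerebrospinal fluid, and Prlr (chr15:10177238-10349180, plus strand) encodes the prolactin receptor. Clic6 (chr16:92485736-92541243, plus strand) belongs to the chloride intracellular channel family, Kcnj13 (chr1:87386363-87394729, minus strand) encodes an inwardly rectifying potassium channel, and Calml4 (chr9:62858080-62875921, plus strand) encodes a calmodulin-like protein. All 10 genes are annotated as protein coding.

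Sequence just before the start site is shown for the pair of genes that defined the gate and for the pair that proved to have high levels outside the choroid plexus, so that both kinds can be set side by side. The sequences are from RefSeq (GRCm38.p6), are read on the strand of the gene, and end at the base before the start. Capitals mark motif matches. The positions are chr5:150952357-150952606 (plus strand) for Kl, chr1:87394730-87394979 (minus strand) for Kcnj13, chr1:43730352-43730601 (plus strand) for 1500015O10Rik and chr9:62857854-62858079 (plus strand) for Calml4.
Kl: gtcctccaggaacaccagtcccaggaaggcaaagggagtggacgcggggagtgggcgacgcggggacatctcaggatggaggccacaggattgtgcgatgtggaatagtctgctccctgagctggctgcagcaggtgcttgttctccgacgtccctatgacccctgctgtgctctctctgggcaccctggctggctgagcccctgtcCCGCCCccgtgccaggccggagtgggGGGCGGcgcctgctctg
Kcnj13: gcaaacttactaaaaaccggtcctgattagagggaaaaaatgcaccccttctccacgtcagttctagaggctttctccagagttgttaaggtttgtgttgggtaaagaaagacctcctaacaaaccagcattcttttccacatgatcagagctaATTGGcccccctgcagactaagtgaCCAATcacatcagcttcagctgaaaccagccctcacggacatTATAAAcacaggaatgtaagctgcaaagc
1500015O10Rik: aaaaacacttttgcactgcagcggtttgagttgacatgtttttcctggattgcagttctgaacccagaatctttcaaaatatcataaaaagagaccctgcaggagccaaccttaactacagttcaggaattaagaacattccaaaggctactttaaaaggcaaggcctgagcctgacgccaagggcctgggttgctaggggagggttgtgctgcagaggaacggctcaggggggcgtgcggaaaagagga
Calml4: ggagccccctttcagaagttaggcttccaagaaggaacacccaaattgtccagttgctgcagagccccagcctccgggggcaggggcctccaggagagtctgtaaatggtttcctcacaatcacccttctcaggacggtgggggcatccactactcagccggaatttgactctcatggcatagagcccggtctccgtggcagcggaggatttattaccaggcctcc

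A set of 6 short motifs was searched on both strands. The motifs of general promoters were the box read as TATAAA, the box read as CCAAT and, for Sp family proteins, the GC box read as GGGCGG. The motifs of factors known from ciliated and choroid plexus epithelium were the core bound by OTX proteins, TAATCC, a half-site of RFX proteins, GTTGCC, and the core bound by FOX proteins, TGTTTAC. In Kl, a GC box began 17 bases before the start on the strand of the gene and another 43 bases before it on the opposite strand. Kcnj13 had a TATA box 29 bases before the start, a CCAAT box 71 bases before it and one on the opposite strand 96 bases before it. The windows of 1500015O10Rik and Calml4 held none of the 6 motifs. Of 32851 promoters searched over 250 bases, 12.4% held the TATA box, 33.8% the CCAAT box, 32.7% the GC box, 6.25% the OTX core, 10.4% the RFX half-site and 3.17% the FOX core, so a match of this kind is common. Sequences were matched by symbol for 5 of the 10 genes, and Prlr, with 3 listed starts, is not shown.

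In choroid plexus cells, the level of a gene was the sum of its UMIs over the cells of a mouse per 10,000 UMIs of those cells. Ttr was at 2947, 2937, 3028 and 2912 per 10,000 (mean 2956 ± 50.2, SD, n = 4 mice), and the 4 mice lay within a narrow range. Enpp2 was at 179, 185, 165 and 154 (171 ± 14.1), with both adult mice above both aged mice. Sostdc1 was at 12.77, 12.993, 13.61 and 12.989 (13.1 ± 0.36), and the ages overlapped. For Kl the values were 8.90, 9.07, 8.15 and 7.59 (8.43 ± 0.69). Those of 1500015O10Rik were 45.5, 47.1, 39.0 and 39.2 (42.7 ± 4.25), again with the adult mice above the aged mice.

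Among the receptors and channels, Folr1 was at 13.2, 12.7, 13.1 and 12.6 (12.9 ± 0.30) and the ages overlapped. Prlr was at 5.63, 5.39, 6.24 and 6.00 (5.81 ± 0.38), the one gene of the 10 whose aged mice were both above both adult mice. Clic6 was at 5.50, 5.85, 4.31 and 4.62 (5.07 ± 0.73), Kcnj13 at 10.9, 10.1, 9.30 and 8.44 (9.67 ± 1.05) and Calml4 at 6.36, 6.32, 5.13 and 5.63 (5.86 ± 0.59). In these 3 genes both adult mice lay above both aged mice.

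**Figure D1:**
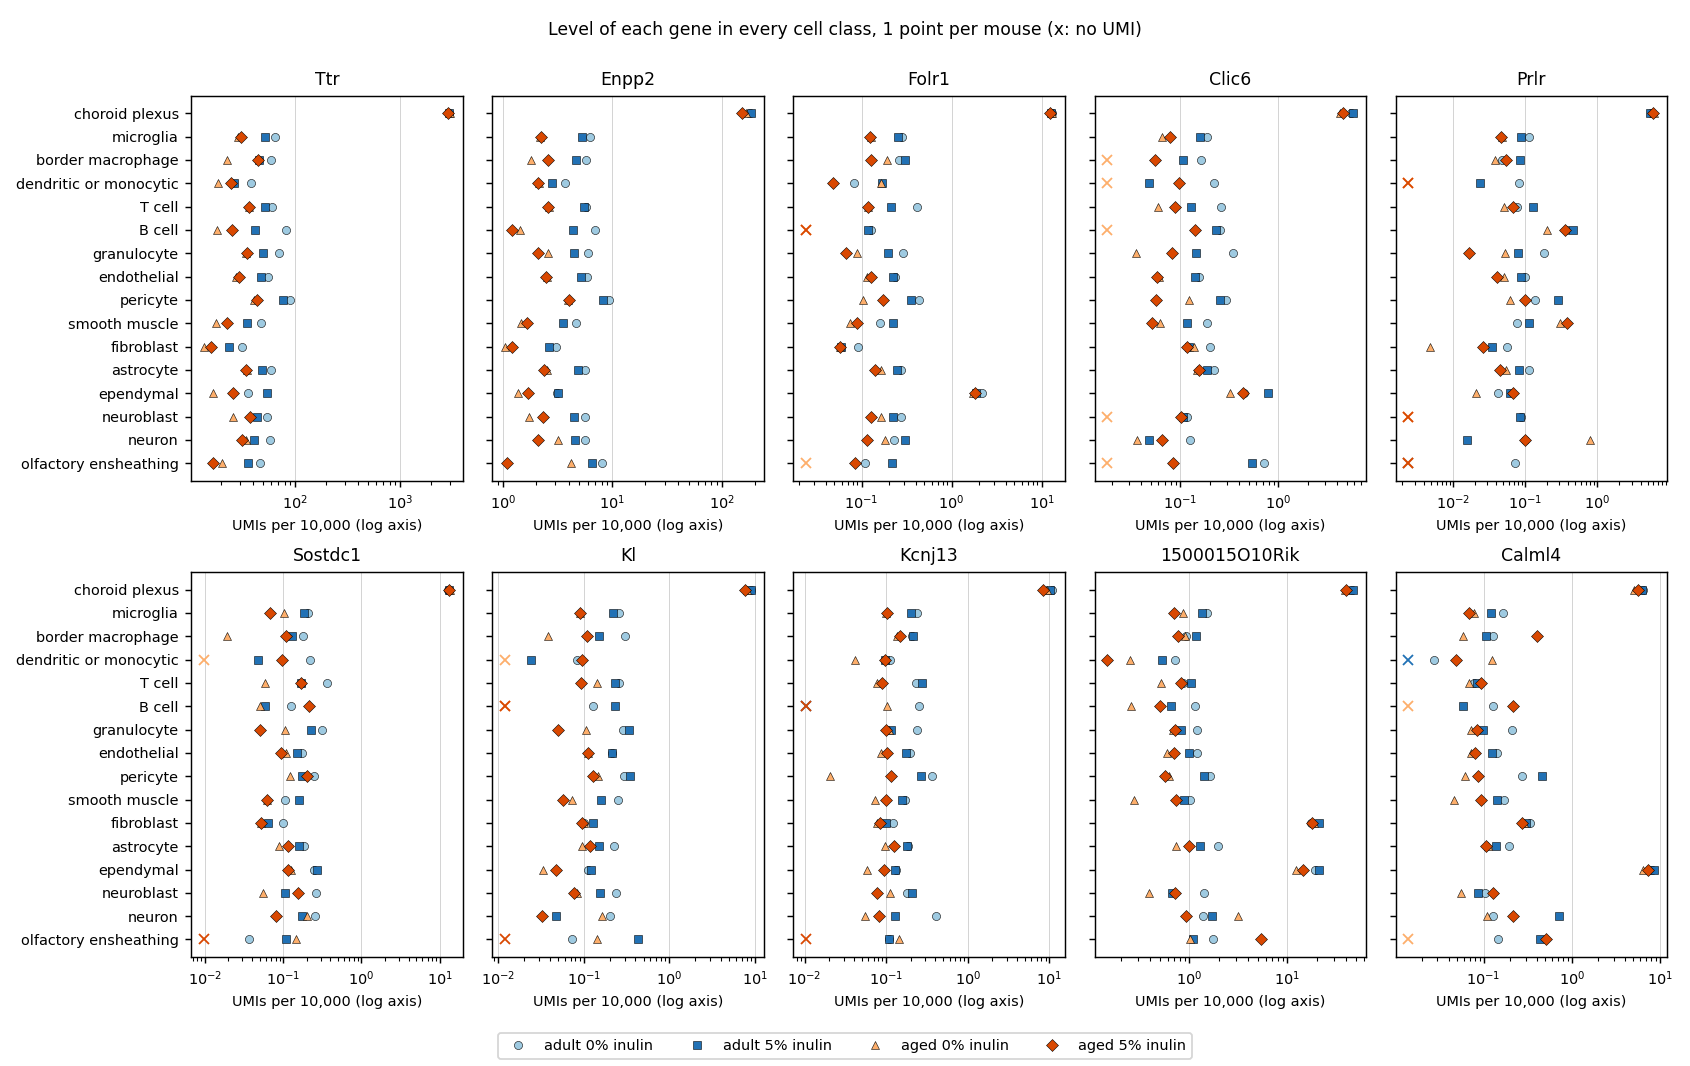
Level of each of the 10 genes (UMIs per 10,000, log axis) in 16 cell classes, with 1 point for each of the 4 mice and a cross where a class had no UMI. Choroid plexus cells stand apart from the other classes for 9 genes, with Ttr near 2956 against a median of 41.1 over the other classes, while Calml4 was higher in ependymal-like cells (7.64) than in choroid plexus cells (5.86).

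Cells of the choroid plexus class were not alike. Over single cells, the median Ttr level was 2881 per 10,000, with 5% of cells below 738 and 5% above 4005 (means over 4 mice). The coefficient of variation over cells was lowest for Ttr (0.337), followed by 1500015O10Rik (0.398), Folr1 (0.413) and Enpp2 (0.470), and highest for Calml4 (0.622) and Prlr (0.760). Prlr was also the gene with the fewest positive cells, 94.1% of cells with a UMI at full depth, and its median of 4.30 per 10,000 lay between a lower 5% point of 0.0677 and an upper one of 12.4. Counting error enlarges these coefficients more for genes with few UMIs, and its part was not tested.

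Choroid plexus cells were 9.92, 5.76, 5.63 and 6.74% of kept barcodes but held 41.4, 33.1, 25.2 and 27.9% of their UMIs. Ttr in these cells alone made up 12.2, 9.72, 7.64 and 8.12% of all kept UMIs, and the largest count of any gene in any barcode was Ttr in each mouse, from 62449 to 70218. Of all Ttr UMIs, 93.7% ± 1.14 lay in choroid plexus cells (SD, n = 4 mice), 4.14% in mixed barcodes, 0.278% in barcodes with no class and 1.90% in the other classes. Sostdc1 (94.0%), Prlr (93.6%), Kcnj13 (93.5%), Kl (92.6%), Enpp2 (92.2%) and Folr1 (91.2%) were divided in much the same way. Smaller shares lay in choroid plexus cells for Clic6 (89.6%), 1500015O10Rik (83.5%, with 7.75% in the other classes) and Calml4 (74.1%, with 10.8% in the other classes and 13.9% in mixed barcodes).

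Outside the choroid plexus, every class held Ttr. Its level ranged from 21.3 per 10,000 in fibroblast-like cells to 63.3 ± 24.8 in pericyte-like cells, with a median over the 15 classes of 41.1, which is 1.39% of the choroid plexus level. In the order of the classes, choroid plexus stood apart and each of the other 15 overlapped its neighbour over the 4 mice. That overlap pools mice of both ages and does not pair the classes of a mouse. Within each mouse, pericyte-like cells (90.8, 77.7, 41.4 and 43.3) were above granulocyte-like cells (70.7, 49.8, 34.5 and 34.9), the class with the next highest mean. Pericyte-like cells were not the highest in every mouse, since border macrophage-like cells were at 45.1 in the aged mouse fed 5% inulin. In the adult mouse fed 0% inulin, B cell-like cells (82.3) lay between the pericyte-like and granulocyte-like cells. In microglia-like cells Ttr was at 64.7, 52.0, 29.0 and 31.0 per 10,000, in endothelial-like cells at 56.0, 47.6, 27.8 and 29.2, and in astrocyte-like cells at 59.6, 49.0, 35.4 and 34.2. Both adult mice were above both aged mice in each of these classes.

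Across the classes outside the choroid plexus, Ttr UMIs per cell varied less than total UMIs per cell. Choroid plexus cells held 16481, 19880, 16630 and 15236 Ttr UMIs per cell. The mean Ttr count in the other classes ran from 26.8 UMIs per cell (pericyte-like) to 52.2 (ependymal-like), although their mean total ran from 4360 UMIs (pericyte-like) to 20044 (fibroblast-like). Within a mouse, the 15 classes spanned 3.92-, 4.61-, 5.04- and 4.72-fold in total UMIs per cell. In Ttr UMIs per cell they spanned 1.57-, 2.86-, 1.66- and 2.11-fold. The Ttr count per cell ran from 37.3 to 58.4 around a median of 43.8 in the adult mouse fed 0% inulin, from 29.2 to 83.6 around 34.2 in the adult mouse fed 5%, from 19.99 to 33.2 around 22.4 in the aged mouse fed 0%, and from 20.2 to 42.7 around 24.4 in the aged mouse fed 5%. The highest class was ependymal-like in every mouse but the aged mouse fed 0% inulin, where it was fibroblast-like. Without ependymal-like cells the highest value in the adult mouse fed 5% inulin was 44.1. Fibroblast-like cells, with the highest mean total, held 52.0, 41.3, 33.2 and 35.3 Ttr UMIs per cell. Pericyte-like cells, with the lowest mean total, held 37.9, 29.2, 19.99 and 20.2.

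**Figure D2:**
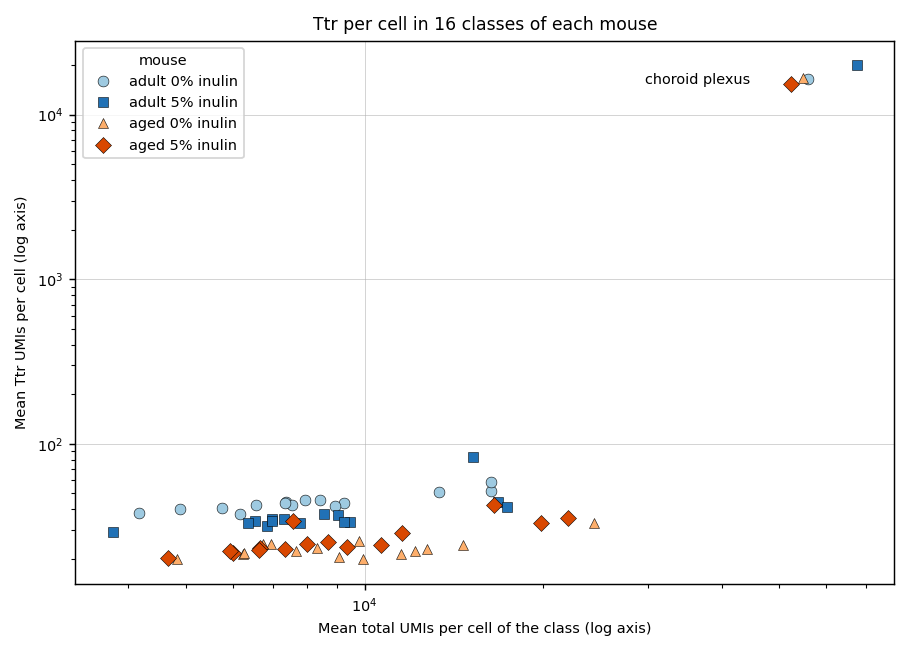
Mean Ttr UMIs per cell against mean total UMIs per cell (both log axes), with 1 point for each of 16 classes in each of 4 mice. The 15 other classes span less in Ttr than in total UMIs in each mouse, with medians of 43.8, 34.2, 22.4 and 24.4 Ttr UMIs per cell. The choroid plexus points lie between 15236 and 19880.

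The same was seen within a class when its cells were divided into quartiles by total UMIs. From the lowest to the highest quartile of endothelial-like cells the median total rose 6.41-fold and the UMIs of the class's own gate genes rose 7.46-fold, while Ttr per cell went from 26.2 to 42.1, a rise of 1.63-fold. In microglia-like cells the total rose 2.61-fold, the gate genes 2.03-fold and Ttr 1.36-fold ± 0.06 (SD, n = 4 mice). In astrocyte-like cells these values were 2.94-, 2.77- and 1.47-fold. Choroid plexus cells were different: Ttr per cell went from 2776 to 36306, a 13.1-fold ± 1.25 rise for a depth that rose 8.95-fold, and their gate genes rose 11.8-fold. Gate genes and totals are not independent of the quartiles, so the folds are descriptions. Expressed per 10,000 UMIs, Ttr therefore fell with depth in endothelial-like cells, from 119 to 24.7, and in microglia-like cells, from 72.0 to 32.5, and rose from 2233 to 3029 in choroid plexus cells. A level per 10,000 in these classes thus reads the depth of the cell as well as its Ttr count.

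**Figure D3:**
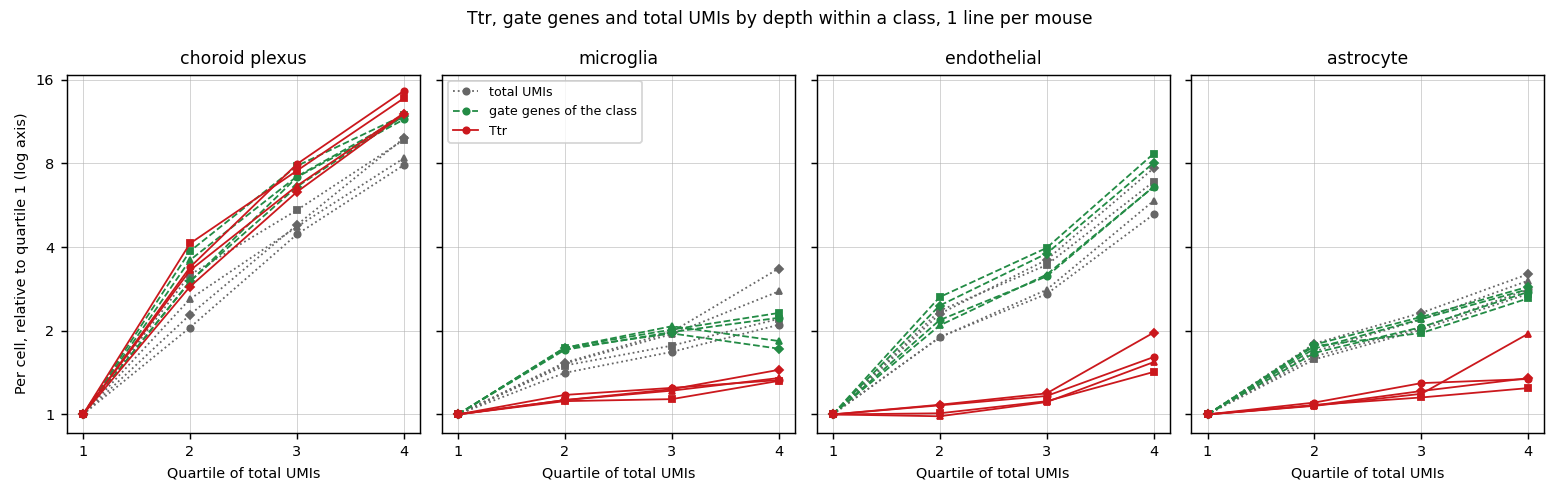
Ttr UMIs, UMIs of the class's gate genes and median total UMIs per cell in quartiles of total UMIs, relative to the lowest quartile (log axis), with 1 line for each mouse in 4 classes. Ttr rises with the total in choroid plexus cells (13.1-fold) and stays far below it in microglia-like (1.36-fold), endothelial-like (1.63-fold) and astrocyte-like cells (1.47-fold).

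The share of cells with at least 1 UMI did not separate the classes for Ttr. With every cell thinned to 2000 UMIs (and shallower cells left out), 94.2 to 100% of the cells of every class had a Ttr UMI, against 99.5 to 100% without thinning. Enpp2 was found in 99.5% of thinned choroid plexus cells and in 39.2 to 67.1% of the cells of the other classes. Oligodendrocytes, a known source of Enpp2 in brain, were too few here (8 cells) to be compared. For Folr1 the thinned share was 86.3% in choroid plexus cells, 29.9% in ependymal-like cells and 2.2 to 4.9% elsewhere. Sostdc1 (80.3%), Kcnj13 (78.3%), Kl (75.5%), Clic6 (61.1%) and Prlr (54.5%) were found in most choroid plexus cells at that depth.

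A further 7 genes had levels of about 1 to 3% of the choroid plexus level in the typical other class. The median over the 15 classes was 3.803 per 10,000 for Enpp2 (2.18% of the choroid plexus level), 0.137 for Sostdc1 (1.05%), 0.147 for Kl (1.72%), 0.140 for Kcnj13 (1.42%), 0.197 for Folr1 (1.52%), 0.0737 for Prlr (1.29%) and 0.134 for Clic6 (2.55%). Those of 1500015O10Rik and Calml4 were 0.940 (2.20%) and 0.116 (1.93%). For Kl and Kcnj13 the gate itself holds these values down, since a cell with more of both would have passed to the choroid plexus class or to the mixed barcodes.

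Against this level, 4 genes had raised values in particular other classes, Calml4, 1500015O10Rik, Folr1 and Clic6, and Prlr is described further on. Calml4 in ependymal-like cells was at 8.16, 8.66, 6.43 and 7.28 per 10,000 (7.64 ± 0.98), 130% of its level in choroid plexus cells and above it in each of the 4 mice. Its next class, fibroblast-like, was at 0.2997. Ependymal cells are the ciliated cells that line the ventricles beside the choroid plexus. A Calml4 UMI was present in 79.9, 84.5, 77.2 and 84.5% of the ependymal-like cells, and in 72.0% after thinning against 69.5% of choroid plexus cells and 1.1 to 8.2% of the cells of every other class.

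For 1500015O10Rik, fibroblast-like cells were at 17.5, 21.0, 18.6 and 18.0 per 10,000 (18.8 ± 1.51, 44.2% of the choroid plexus level) and ependymal-like cells at 19.2, 21.1, 12.3 and 14.3 (mean 16.7). These 2 classes overlapped each other and stood apart from the next, olfactory ensheathing-like cells. After thinning, 77.8% of fibroblast-like and 77.3% of ependymal-like cells had a UMI of it, against 97.6% of choroid plexus cells and 9.5 to 23.1% elsewhere. Folr1 in ependymal-like cells was at 2.18, 1.88, 1.75 and 1.84 (1.91 ± 0.19, 14.8% of the choroid plexus level). Clic6 there was at 0.446, 0.795, 0.324 and 0.438, 9.68% of its choroid plexus level. Ttr in the same ependymal-like cells was at 33.2 per 10,000, below the median of 41.1 over the classes. These cells were deep, at a mean of 15688.5 UMIs. Per cell they held a mean of 52.2 Ttr UMIs, the highest of the other classes, with medians of 47, 35, 22 and 26 by mouse.

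Free RNA of a single source would carry its genes in 1 ratio into every class, so the UMIs of each gene were set against the Ttr UMIs of the same cells. With the ratio in choroid plexus cells of the same mouse as the reference, 26 of 135 pairs of gene and class lay above it in all 4 mice beyond 95% Poisson counting intervals, and 2 lay below it. The 26 pairs were 9 classes for Enpp2, 6 for 1500015O10Rik, 5 for Clic6, 4 for Calml4, and 1 each for Kl and Folr1. The 2 pairs below were Sostdc1 in microglia-like and astrocyte-like cells. Intervals here cover only the counting error of the gene's UMIs in the class, with the reference ratio taken as exact.

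Enpp2 lay above this reference in most classes. In endothelial-like cells there were 9.73 ± 1.15 Enpp2 UMIs for every 100 Ttr UMIs (SD, n = 4 mice), against 5.78 ± 0.49 in choroid plexus cells, 1.68 ± 0.06 times the reference. Kl had 1.42, Calml4 1.33, Clic6 1.45 and 1500015O10Rik 1.53 times the reference in endothelial-like cells, while Folr1 (0.995), Kcnj13 (1.06) and Prlr (0.884) were close to it and Sostdc1 was at 0.755. This reference is a sum over all choroid plexus cells, whose ratios varied with depth. In their lowest and highest quartiles of UMIs, Calml4 was at 0.442 and 0.190 per 100 Ttr UMIs (means of 4 mice). Clic6 was at 0.280 and 0.166, and Sostdc1 at 0.328 and 0.482. The mean endothelial-like ratios of these genes lay between those quartile values. For Enpp2 (5.41 and 5.76), Kl (0.324 and 0.289) and 1500015O10Rik (1.23 and 1.52) they lay above both. The 389 barcodes that passed the choroid plexus gate but were removed for a high mitochondrial share, which is often read as a sign of cell damage, had another composition, with 25.4 ± 5.31 Enpp2 UMIs per 100 Ttr UMIs. Kl there was at 1.54 per 100 against 0.285 in kept choroid plexus cells and 0.405 in endothelial-like cells, and Clic6 at 0.598 against 0.172 and 0.24998. Since the gate requires Kl and Kcnj13, their ratio to Ttr in barcodes with little Ttr is partly set by the rule. Kcnj13 was at 0.775 per 100 in the removed barcodes, 0.327 in the kept cells and 0.346 in endothelial-like cells. In the same order, Folr1 was at 0.909, 0.437 and 0.434, Prlr at 0.589, 0.197 and 0.173, and 1500015O10Rik at 1.51, 1.45 and 2.18. Sostdc1 was at 0.513, 0.443 and 0.335, and Calml4 at 0.129, 0.198 and 0.262. On these means, the endothelial-like ratio lay between the other 2 for Enpp2 and Clic6, and outside them for 1500015O10Rik, Sostdc1 and Calml4. Folr1 and Prlr in endothelial-like cells were close to the kept cells, and for Folr1 the mice lay on both sides. Whether the removed barcodes gave any of the free RNA was not tested.

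A second reference was chosen after seeing these data, the ratio in endothelial-like cells of the same mouse. This reference was taken as exact too, on as few as 72 UMIs (Prlr in the aged mouse fed 0% inulin). Against it, 9 of 126 pairs lay above in all 4 mice and 3 below, the latter being Enpp2 in microglia-like, granulocyte-like and astrocyte-like cells. Of the 9 pairs, 5 were in ependymal-like cells: Calml4 at 101 times the endothelial-like ratio (60.2 to 151 over the mice), 1500015O10Rik at 25.5 (18.5 to 35.2), Folr1 at 15.97 (7.29 to 25.6), Clic6 at 6.67 (4.45 to 8.94) and Sostdc1 at 1.78 (1.40 to 2.22). Another 3 were in fibroblast-like cells: 1500015O10Rik at 45.01 (25.6 to 64.6), Calml4 at 5.87 (4.15 to 8.27) and Clic6 at 3.05 (1.74 to 4.63). The last was Clic6 in astrocyte-like cells, at 1.70 (1.29 to 2.26). Enpp2, Kl, Kcnj13 and Prlr were above this reference in all 4 mice in none of the classes. Of these genes, Enpp2 was above it in 3 mice in olfactory ensheathing-like cells (0.774 to 2.28 over the mice, 54 cells in all). Prlr was above it in 3 mice in B cell-like and in smooth muscle-like cells.

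**Figure D4:**
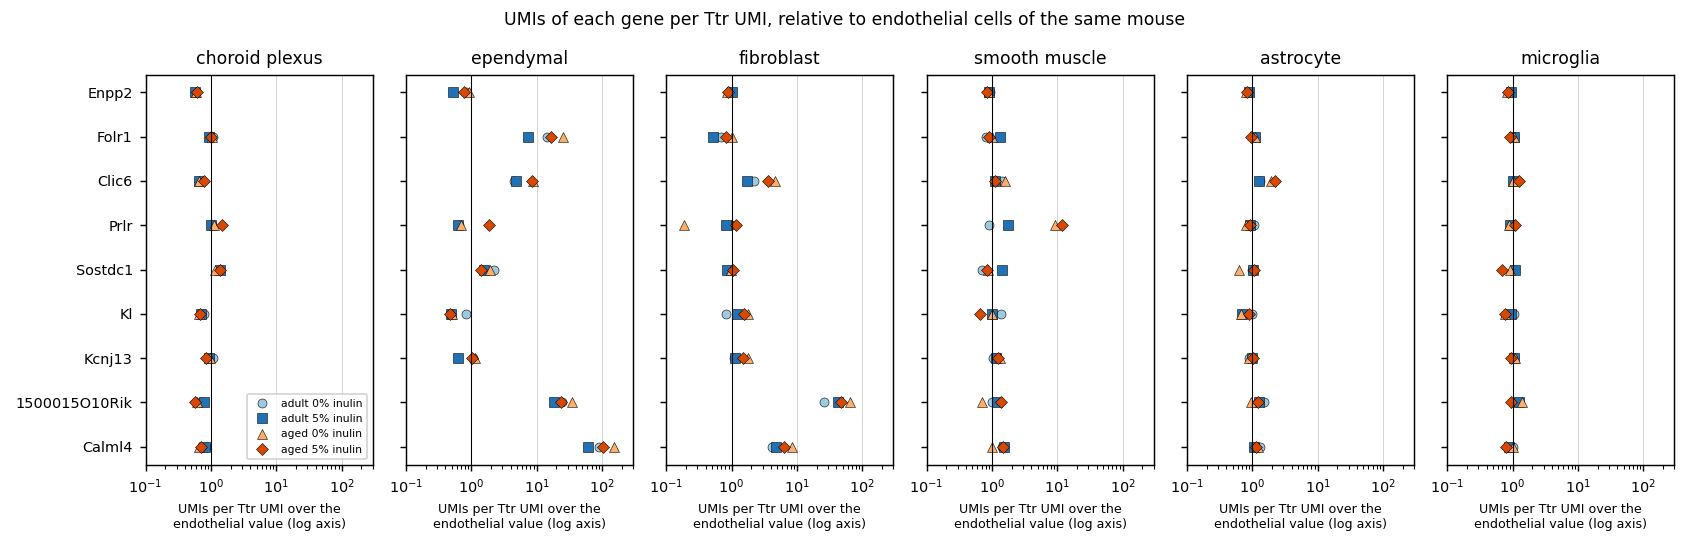
UMIs of each of 9 genes per Ttr UMI in choroid plexus and 5 other classes, relative to endothelial-like cells of the same mouse (log axis; line at 1), with 1 point for each mouse. Calml4 (101), 1500015O10Rik (25.5) and Folr1 (15.97) lie far to the right in ependymal-like cells and 1500015O10Rik (45.01) in fibroblast-like cells, Clic6 follows in both (6.67 and 3.05), and the microglia-like points lie near 1.

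The high values of Calml4 and 1500015O10Rik in ependymal-like cells, and of 1500015O10Rik in fibroblast-like cells, were not made by single cells. In ependymal-like cells the cell with the most Calml4 held 4.7 to 7.2% of the class's Calml4 UMIs in each mouse, and the top cell for 1500015O10Rik held 5.40 to 9.31%. In fibroblast-like cells 79.6 to 95.3% of cells had a 1500015O10Rik UMI and the top cell held 4.74 to 5.89%. Prlr was highest outside the choroid plexus in B cell-like cells, at 0.384, 0.468, 0.205 and 0.357 per 10,000 (0.353 ± 0.11, 6.18% of its choroid plexus level), and its ratio to Ttr there was 2.57 to 10.004 times that of endothelial-like cells, beyond counting error in 3 of 4 mice. These values rest on 3, 8, 4 and 5 UMIs in 16, 22, 16 and 15 cells. The cell with the most held 66.7, 25, 75 and 60% of those UMIs. Without that cell the levels were 0.136, 0.403, 0.066 and 0.164 per 10,000. In other classes too, single cells made most of a value. Prlr in neuron-like cells was at 0.101, 0.016, 0.797 and 0.099 per 10,000, and in the aged mouse fed 0% inulin 39 of its 44 UMIs (88.6%) came from 1 cell. Calml4 in border macrophage-like cells of the aged mouse fed 5% inulin had 14 of 22 UMIs in 1 cell.

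The genes whose pattern over classes and mice was most like that of Ttr were found by Pearson correlation of log2(UMIs per 10,000 + 0.01) over 52 class-by-mouse sums (13 classes with at least 20 cells in every mouse, 18809 genes). The sums of a mouse share a library, and choroid plexus sums lie far from all others, so the correlations describe mainly that gap. Enpp2 was closest (0.986), followed by Sostdc1 (0.967), 2900040C04Rik (0.966), Kcnj13 (0.961), Kl (0.957) and Car12, a carbonic anhydrase (0.944). The other 8 genes outside the 10 that led the list were Gm41271, Gm534, Gm40663, Scgb3a2, Htr2c (a serotonin receptor, 0.938), Oc90, Gm48622 and 4930511M06Rik (0.934). Of these, Gm41271, Gm40663, Scgb3a2, Oc90 and Gm48622 were at only 0.0080 to 0.0121 per 10,000 in choroid plexus cells, near the 0.01 added. Elsewhere they were at 0.0001 to 0.00036, so the added 0.01 sets their values there. Htr2c was at 3.89, Gm534 at 0.147 and 4930511M06Rik at 0.064 in choroid plexus cells. Prlr came at rank 78 (0.852), Folr1 at 97 (0.830), Clic6 at 103 (0.820), Calml4 at 318 (0.558) and 1500015O10Rik at 383 (0.519).

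The comparison of ages asked whether these genes changed in their source cells. In choroid plexus cells, 1 of the 10 genes passed the test: Clic6 was lower in aged mice, by -0.32 on the log2 scale (SE 0.06, adjusted p = 0.016 by edgeR's quasi-likelihood test on sums per mouse with Benjamini-Hochberg adjustment over 15590 genes). Of all genes tested, 1.57% were called lower and 2.49% higher with age. Without the adult mouse fed 5% inulin, Clic6 was at -0.29 with an adjusted p of 0.078. The other 9 genes missed the threshold, from Calml4 and 1500015O10Rik (-0.21 and -0.22, adjusted p = 0.092 for each) to Folr1 (0.014, adjusted p = 0.93). Ttr differed by 0.042 (SE 0.098, adjusted p = 0.87), Enpp2 by -0.16 (adjusted p = 0.29), Kl by -0.16 (0.19), Kcnj13 by -0.21 (0.15), Sostdc1 by 0.074 (0.56) and Prlr by 0.18 (0.14). The median over the 10 genes was -0.16 against -0.0038 over all genes tested. Under the UMI limit of 22005, which kept 643 of the 2288 choroid plexus cells, this median was 0.16, with 3 of the 10 genes below 0. Its direction thus depended on the limit, and the cause was not tested. The values are relative to the scaling of each mouse's sum, in which Ttr is the largest single count.

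Other genes of the epithelium were taken from a list of 39 with known roles, of which 38 could be tested. Of 9 secreted proteins, 2 rose with age: Trf (transferrin, the iron carrier), at 3.86, 3.32, 4.96 and 5.35 per 10,000 (log2 fold change 0.55, SE 0.08, adjusted p = 0.0046), and Vegfa (vascular endothelial growth factor A, 0.30, adjusted p = 0.027). Of 11 genes of ion and water transport, 1 fell: Kcne2 (a subunit of potassium channels), at 4.93, 5.20, 4.21 and 3.89 (-0.29, adjusted p = 0.031). None of 8 carriers of folate, thyroid hormone, vitamins and organic ions, 5 tight junction genes or 5 transcription factors passed the test. Over all genes the shares were 2.49% higher and 1.57% lower, so that 1 lower of 38 was near the share over all genes. The median over the 38 genes was -0.01.

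Diet was compared across age in the same cells. No gene passed the edgeR threshold among 15590 tested (0.0%), none of the 10 genes included. At an unadjusted p under 0.05 there were 300 genes, and DESeq2 called 1. With age as a block 25 genes passed (21 higher and 4 lower with 5% inulin), and with no filter on low counts 114, and in neither fit was any of the 10 among them. With 2 mice on each diet, a difference of moderate size may not be seen.

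In most classes outside the choroid plexus, genes of this group were lower in aged mice. All 10 passed the test in microglia-like cells, where 4.85% of 14302 genes were called lower, with a median of -0.93 over the 10 genes against -0.01 over all. Ttr there differed by -0.77 (SE 0.12, adjusted p = 0.0022), Enpp2 by -1.20 (SE 0.09, adjusted p = 2.5e-05) and Kl by -1.22 (SE 0.13, adjusted p = 0.00026; edgeR in each case). Enpp2 was at 6.21 and 5.34 per 10,000 in the adult mice and at 2.19 and 2.22 in the aged mice, so that the ages did not overlap. All 10 also passed in endothelial-like cells (1.58% of 15522 genes called lower), with a median of -0.89: Ttr differed by -0.84 (adjusted p = 0.0074), Enpp2 by -1.13 (0.0019) and Clic6 by -1.31 (0.0042). With diet as a block 7 of the 10 passed, and Sostdc1 (adjusted p = 0.051), 1500015O10Rik (0.055) and Calml4 (0.065) did not. In astrocyte-like cells (0.49% called lower), 3 of the 10 passed, Enpp2 (-1.07), Folr1 (-0.77) and Ttr (-0.62), and all 10 had values below 0. Mean total UMIs per cell by mouse were 6568, 6534, 7674 and 7992 for microglia-like cells. They were 7539, 7310, 8330 and 8689 for endothelial-like cells, and 7347, 6978, 6961 and 6650 for astrocyte-like cells. A level per 10,000 also reads depth, and the part of depth in the age differences of any class was not tested.

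The remaining 9 classes with at least 20 cells in every mouse gave fewer calls. Lower with age were 5 of 9 genes tested in pericyte-like cells (0.987% of all genes called lower), 5 of 10 in ependymal-like cells (1.01%), 3 of 10 in smooth muscle-like cells (1.59%), 2 of 8 in T cell-like cells (0.11%), and 1 each of 5 in border macrophage-like (0.0634%), 6 in granulocyte-like (0.113%), 9 in fibroblast-like (0.0553%) and 7 in neuroblast-like cells (0.167%). In neuron-like cells none of 6 passed, and none of all genes by edgeR (0.0%), with 568 genes at an unadjusted p under 0.05 and 13 called by DESeq2, none of them among the 10. Over the 12 classes, 100 tests of these genes gave 42 calls lower and 1 higher, and 98 of the 100 values were below 0 (the exceptions were Prlr in smooth muscle-like cells and 1500015O10Rik in neuron-like cells). The tests are not independent, since all classes share the 4 libraries. Enpp2 was lower in 11 of the 12 classes and Ttr in 7, with values for Ttr from -0.53 to -1.07.

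**Figure D5:**
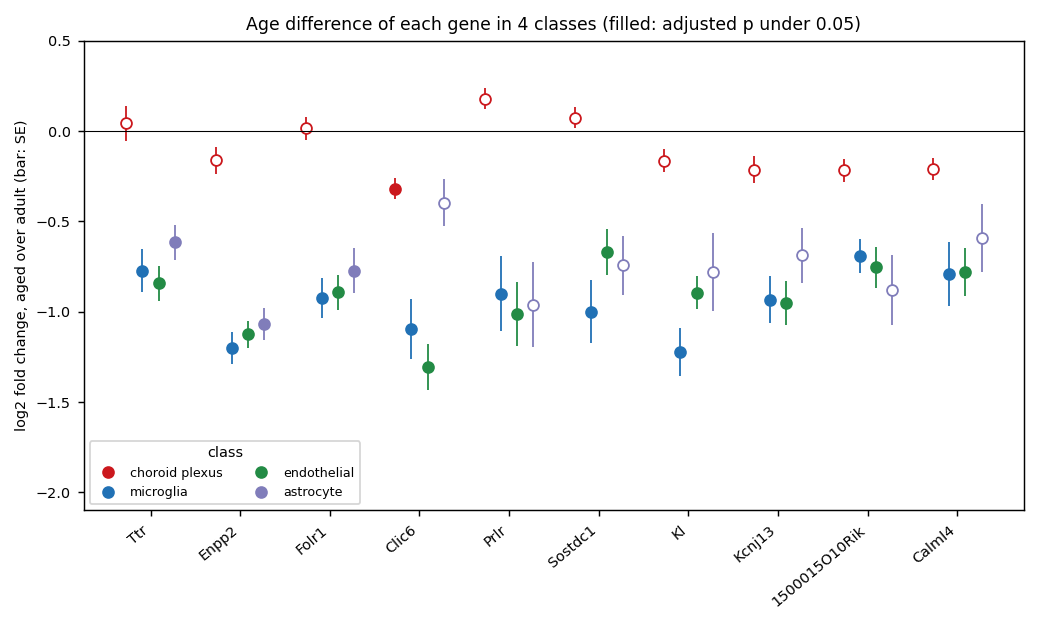
Log2 fold change of aged over adult mice for each of the 10 genes in 4 classes, with bars of 1 SE and filled points where the edgeR adjusted p is under 0.05. In choroid plexus cells the values lie from -0.32 (Clic6) to 0.18 (Prlr), whereas in microglia-like and endothelial-like cells every gene is filled and lies below -0.60.

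In ependymal-like cells, Ttr (-1.07), Enpp2 (-0.98), Sostdc1 (-1.08) and Kl (-1.45) were lower with age, and so was 1500015O10Rik (-0.57, SE 0.09, adjusted p = 0.0017). Calml4 (-0.27, adjusted p = 0.13), Folr1 (-0.15, adjusted p = 0.53) and Clic6 (-0.62, adjusted p = 0.19) missed the threshold of the edgeR test. With 1500015O10Rik, these genes had the highest ratios to Ttr in this class relative to endothelial-like cells. Whether the values of Calml4, Folr1 and Clic6 differ from that of Ttr was not tested.

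The difference between the age difference in a class and that in choroid plexus cells was tested directly, in an edgeR fit for each class with the mouse as a block, a test chosen after seeing the data. Against choroid plexus cells, 8 of the 10 genes were lower with age in microglia-like cells (1.35% of all genes called lower), 9 of 10 in endothelial-like cells (1.01%) and 5 of 10 in astrocyte-like cells (0.499%). For Ttr the difference was -0.77 (SE 0.13, adjusted p = 0.0048) in microglia-like, -0.86 (SE 0.06, adjusted p = 0.0002) in endothelial-like and -0.60 (SE 0.09, adjusted p = 0.0046) in astrocyte-like cells. 1500015O10Rik passed in none of the 3 classes (-0.44, -0.52 and -0.60, adjusted p = 0.052, 0.05005 and 0.14).

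Several measures of the source were higher in adult mice on average, but not all of them separated the ages. Ttr UMIs per choroid plexus cell (16481, 19880, 16630 and 15236) did not. Choroid plexus cells were 9.92 and 5.76% of kept barcodes in the adult mice and 5.63 and 6.74% in the aged mice, 1.27 times as many in adults on average, and the ages overlapped. Ttr UMIs in choroid plexus cells per kept barcode were 1635 and 1145 in adult and 936 and 1027 in aged mice, a ratio of 1.42. Ttr UMIs per cell of the other classes were 43.3 and 35.5 in adult and 23.3 and 25.3 in aged mice, a ratio of 1.62, and per 10,000 UMIs the ratio was 1.81. The share of choroid plexus barcodes removed for a high mitochondrial share was 15.5 and 17.0% in adult and 13.2 and 11.5% in aged mice. The 4 mice stood in the same order for choroid plexus Ttr UMIs per kept barcode and for Ttr UMIs per cell elsewhere, from adult 0% to adult 5%, aged 5% and aged 0% inulin. All UMIs of a library stood in this order too (115814810, 111648775, 108131200 and 88248117), so the order is not particular to the choroid plexus. Neither the share of choroid plexus cells nor Ttr UMIs per choroid plexus cell gave this order. With 2 mice at each age, age, origin and the amount of choroid plexus tissue in a suspension cannot be told apart. The part of each in the lower values of aged mice was not tested.

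Prlr in smooth muscle-like cells went the other way. It was at 0.077, 0.114, 0.307 and 0.385 per 10,000 (14, 25, 79 and 74 UMIs), and both aged mice lay above both adult mice. The difference was 1.89 on the log2 scale (SE 0.26, adjusted p = 0.0053, edgeR), in a class where 2.17% of 11037 genes were called higher with age. Against endothelial-like cells, a comparison chosen after seeing the value, the age difference was higher by 2.94 (SE 0.36, adjusted p = 0.0097), where 0.388% of genes were called higher. In endothelial-like cells Prlr was at 0.102, 0.087, 0.052 and 0.041. Cells with at least 3 Prlr UMIs numbered 0 of 197, 1 of 232, 8 of 202 and 10 of 180 smooth muscle-like cells. Without the single cell that held the most, the levels were 0.072, 0.073, 0.269 and 0.306. With no mitochondrial limit the difference was 1.22 and missed the threshold (adjusted p = 0.079).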

How the data were processed

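Single cells from the whole brains of 4 mice were captured with the 10x Genomics 3′ version 3 chemistry. The authors counted UMIs with Cell Ranger 3.1.0 on GRCm38 (Ensembl 98 in the methods), and their deposited values are whole-number counts per gene and barcode, not normalized, and not filtered by the limits on cells in the methods. The number of barcodes is that of called cells, and empty droplets were not analysed here. Sample groups came from the labels and sex from the methods. Reads counted at 3′ ends were not scaled by length, so levels are compared between classes, not between genes.

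Barcodes were removed here if their mitochondrial share passed 15.8% (3 median absolute deviations from the median), with no upper UMI limit (22005 UMIs, set here by the same rule, was an alternative, while the methods name the total gene count). Counts were summed per class and mouse and tested with edgeR 4.0.16 (filterByExpr, TMM, quasi-likelihood; R 4.3.3), called at an adjusted p under 0.05. DESeq2 1.42.0 was an alternative, as were no filter, diet as a block, Scrublet calls removed, a gate of 6 UMIs and leaving out each mouse. Doublets were otherwise treated by setting mixed barcodes aside. Scripts used Python 3.11.15 with scanpy 1.11.5 and were tested on simulated data. An exact permutation test of 2 mice against 2 cannot go below p = 0.333, so it was not used.

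The 10 genes, the gene lists and the gates were chosen with earlier results of these data known. Named genes were the 10, the 10 others most correlated with Ttr, and up to 3 called genes of each sublist in each direction. GRCm38 coordinates are from GENCODE vM21. P-values of the age tests without a block measure the spread between 2 mice of an age, which also differed in diet. Those of the diet test without a block measure the spread between 2 mice on a diet, which also differed in age. In the tests with the mouse as a block, they measure the spread between mice of an age in the difference between 2 classes.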

Additional observations from a re-analysis of the deposited data

Results flagged for a closer look

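The age differences of several genes differed between cell classes by the test of the difference itself (edgeR, mouse as a block, chosen after seeing the data). Relative to choroid plexus cells, the aged-over-adult log2 difference in microglia-like cells was lower by the following amounts: Ttr -0.77, Enpp2 -0.999, Folr1 -0.90, Clic6 -0.74, Prlr -1.04, Sostdc1 -1.04, Kl -1.02 and Kcnj13 -0.68. In endothelial-like cells the values were Ttr -0.86, Enpp2 -0.94, Folr1 -0.89, Clic6 -0.97, Prlr -1.18, Sostdc1 -0.72, Kl -0.71, Kcnj13 -0.71 and Calml4 -0.56. In astrocyte-like cells they were Ttr -0.60, Enpp2 -0.85, Folr1 -0.74, Prlr -1.09 and Sostdc1 -0.77. The values share the choroid plexus sums as their reference, so they do not count as separate evidence.

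Relative to endothelial-like cells, the age difference of Prlr in smooth muscle-like cells was higher by 2.94. With 2 mice at each age, no group was large enough to be searched for a mouse that stands apart.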

How the results depend on the processing

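Of 109 alternative values for the main counts and levels, 87 were labelled the same and 22 moved. A count was labelled the same if it equalled the main count or lay within 1.5-fold of it. In choroid plexus cells the count of the 10 genes called with age (1) was 0 with a fold threshold of 1.5, 3 with DESeq2, 6 with no filter on low counts, 2 under the upper UMI limit set here (Clic6 lower and Sostdc1 higher by 0.44), and 0 to 2 leaving out each mouse. All genes called there (633) numbered 331, 1530 and 172 with the fold threshold, no filter and the UMI limit, and 1169 with diet as a block. In astrocyte-like cells (3 of the 10) the count was 1 with no filter, 7 under the UMI limit, 8 with no mitochondrial limit and 0 to 6 leaving out each mouse (0 without either adult mouse, 6 without the aged mouse fed 5% inulin). In the other 9 classes (20) it was 31 with no filter, 30 with diet as a block and 12 to 30 leaving out each mouse. The Ttr level in choroid plexus cells (2956 per 10,000) was 2251 under the UMI limit and 2875 with no mitochondrial limit. Pairs above the reference ratio (26) were 9 with the endothelial reference. Signs turned in choroid plexus cells for Enpp2 (0.073), Kcnj13 (0.18) and 1500015O10Rik (0.24) under the UMI limit, and for Folr1 (main value 0.014; -0.030 to 0.055 leaving out each mouse) without the adult mouse fed 5% (-0.022) or the aged mouse fed 0% inulin. None of these was called, and the cause was not tested. In microglia-like cells 99 of 110 values for single genes kept their call and 11 lost it, and in endothelial-like cells 101 and 9, with no sign turned. The count of the 10 was 7 to 10 in each of these classes leaving out each mouse. The labels give no replicate numbers, so mice were paired only by diet, as the block above. In astrocyte-like cells Ttr was not called under that block (2 of the 10). Fewer than 20 cells per mouse kept 3 classes out of the age tests.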
